A study of Homo sapiens with 15 samples.

Results

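The arrays taken 4, 6 and 8 h after epidermal growth factor (EGF) were set against those taken 18 and 24 h after it, to describe how transcript levels moved between the middle hours and the end of the first day. The arrays were chosen by the hour in their titles, with 1 array each at 4, 6, 8 and 18 h and 3 arrays at 24 h. This gave 3 arrays in the first window and 4 in the second, or 7 of the 15 arrays of the series. The 12 h array (1) and the 48 h arrays (3) were left out of the comparison and are given as background values only. All arrays hold RNA of H1975, a cell line from a human non-small cell lung cancer. Its cells were kept overnight in medium without serum and then received 50 ng/ml EGF in the same medium, so both windows carry the same treatment, and hours after EGF and hours without serum run together. Unstimulated cells were not analysed here. The harvest times listed in the protocol do not include 18 h, and that array was used as labelled. All 3 arrays of the first window carry replicate number 1 and the 18 h array carries number 2. The labels do not say whether arrays of one hour came from separate cultures, so p-values measure the spread between these arrays.

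Levels are SCAN scores, which the authors computed on each array alone. A score is on a log scale and standardised within its array, so differences are relative to all else on the same array, and no fold change is given. Differences are 4 to 8 h minus 18 to 24 h, with the standard error (SE) of limma, and a gene was called at a Benjamini-Hochberg adjusted p under 0.05 over 14675 genes. The SE counts the 3 arrays of 24 h as independent although they share their hour, so it can be too small. In bulk RNA, fewer cells in a phase of the cell cycle and less RNA per cell cannot be told apart.

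EGF binds EGFR, and the ERK and PI3K pathways downstream of it carry cells past the restriction point of G1. There the E2F factors are released from RB1 and switch on the enzymes of DNA replication, and later MYBL2, FOXM1 and the MuvB proteins switch on the genes of mitosis. When growth signals fade, FOXO factors re-enter the nucleus and the p130 pocket protein (RBL2) helps to silence both groups.

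Of 14675 genes, limma called 2396 (16.3%), with 1394 higher at 4 to 8 h (9.5%) and 1002 lower (6.83%). An unadjusted p under 0.05 was found for 3970. The median size of a called difference was 0.129, and only 22 called genes differed by more than 0.4 (374 by more than 0.2). For comparison, the median standard deviation between the 24 h arrays was 0.0312. The 2 windows did not overlap for 3629 genes (24.7%). Protein-coding genes were called more often (18.3%) than lncRNA genes (8.59% of 1351) or microRNA genes (5.46% of 934). On the first principal component of the 7 arrays (52.8% of the variance) the 4, 6 and 8 h arrays lay at 6.30, 5.18 and 4.19, and the 18 and 24 h arrays between -4.41 and -3.70. Among the arrays of replicate number 1 alone (3 against 1) 512 genes were called. Of 8 measured markers of the line 6 were not called, among them EPCAM (2.09 to 2.24 on the 7 arrays), EGFR (2.46 to 2.53) and NKX2-1 (1.45 to 1.55). NAPSA (0.58 to 1.30) and KRT19 (1.78 to 1.92) were called lower at 4 to 8 h. The KRT19 call (-0.083 ± 0.026, adjusted p = 0.041) ended without any 1 of 6 arrays (adjusted p of up to 0.13). Of 5 blood markers PPBP scored -0.26 to -0.14, LYZ -0.077 to 0.0065 and CD14 0.005 to 0.17, while CSF1R (1.10 to 1.22) and CD68 (2.52 to 2.59) were clearly above 0. CD14 alone was called, higher at 4 to 8 h, and its call ended when the 4, 8 or 18 h array was left out (adjusted p of up to 0.076). Of 6 fibroblast and endothelial markers DCN, VWF, LUM, CLDN5 and THY1 lay between -0.12 and 0.16, and KDR, at 0.45 to 0.85, was the one called.

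Promoters of gene lists are shown first, because some carry short elements known from their pathways. The shares count every list member with a promoter, called or not. The promoters come from RefSeq (GRCh38.p14) and span 250 bases before to 50 bases after the start of a gene, with 10707 of the genes matched. Of 57 genes of DNA replication, 51 had a promoter, and 20 of these (39.2%) held TTTGGCGC, TTTCCCGC, TTTGCCGC or TTTCGCGC on either strand, which are forms of the E2F site. All promoters held one in 4.50%. Of 67 promoters of 79 genes of mitosis, 39 (58.2%) held TTTGAA on either strand, the letters of the cell cycle homology region that MuvB complexes bind, against 11.8% of all promoters. The metal response element (TGCGCNC or TGCACNC) was in all 4 metallothionein promoters of 9 measured genes (35.3% of all promoters). The FOXO element GTAAACA was in 4 of 20 promoters of FOXO targets (20.0%, against 2.59%), the E-box CACGTG in 3 of 14 of clock genes (21.4%, against 9.04%) and the ATF4 element TGATGNAA in 2 of 16 of ATF4 and amino acid genes (12.5%, against 2.24%). A match describes letters only. Capitals mark the matches, and in MCM6 they lie in overlapping pairs, 1 on each strand:
MCM6, chr2:135876514-135876613, minus strand: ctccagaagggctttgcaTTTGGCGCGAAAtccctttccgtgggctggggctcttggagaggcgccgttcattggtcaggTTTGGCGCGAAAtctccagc
GINS2, chr16:85688955-85689014, minus strand: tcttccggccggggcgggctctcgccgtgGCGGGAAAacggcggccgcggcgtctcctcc
PCNA, chr20:5126643-5126702, minus strand: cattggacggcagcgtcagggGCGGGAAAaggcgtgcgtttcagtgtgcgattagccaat
MKI67, chr10:128126429-128126488, minus strand: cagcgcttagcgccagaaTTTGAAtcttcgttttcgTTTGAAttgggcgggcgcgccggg
KIF11, chr10:92593070-92593129, plus strand: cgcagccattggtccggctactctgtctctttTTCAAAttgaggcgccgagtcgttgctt
MT1X, chr16:56682310-56682429, plus strand: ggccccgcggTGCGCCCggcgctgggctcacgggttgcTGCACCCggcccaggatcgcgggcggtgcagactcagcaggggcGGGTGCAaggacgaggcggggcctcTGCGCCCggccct
TXNIP, chr1:145996670-145996729, minus strand: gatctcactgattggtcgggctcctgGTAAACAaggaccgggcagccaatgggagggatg
ASNS, chr7:97872444-97872503, minus strand: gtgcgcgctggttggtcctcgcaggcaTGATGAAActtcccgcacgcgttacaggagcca
PER1, chr17:8152545-8152604, minus strand: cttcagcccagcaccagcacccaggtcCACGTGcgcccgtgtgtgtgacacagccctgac

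Genes that license origins and unwind DNA were higher in the first window. All 17 measured members were called higher at 4 to 8 h, with a median difference of 0.37 (all genes 0.0042). CDC6, which loads the MCM helicase onto origins, scored 2.19, 2.11 and 2.17 at 4, 6 and 8 h and 1.54 at 18 h and 1.54, 1.64 and 1.53 at 24 h. Every array of the first window lay above every array of the second, and the difference was 0.59 ± 0.031 (SE; adjusted p = 5.5e-09). The helicase subunit MCM6 scored 2.20, 2.12 and 2.09, then 1.55 at 18 h and 1.54, 1.58 and 1.53 at 24 h (0.59 ± 0.030, adjusted p = 3.4e-09). Its partners MCM3 (0.53 ± 0.027) and MCM5 (0.45 ± 0.032) followed the same order of windows, as did MCM2 (0.42), MCM4 (0.37) and MCM7 (0.33). CDC45, which joins MCM and GINS into the active helicase, scored 1.65, 1.55 and 1.49 against 1.03 at 18 h and 1.05, 1.09 and 1.07 at 24 h (0.50 ± 0.034, adjusted p = 1.0e-07). GINS2 itself scored 2.47, 2.35 and 2.32 against 1.79 at 18 h and 1.87, 1.88 and 1.87 at 24 h (0.53 ± 0.036, adjusted p = 1.3e-07), and GINS1, GINS3 and GINS4 were higher by 0.32, 0.29 and 0.33. MCM10, which activates the helicase, was higher by 0.53 ± 0.030 (SE; adjusted p = 1.3e-08). The smallest difference of the group was that of DBF4, the activator of the CDC7 kinase, at 0.19.

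**Figure D1:**
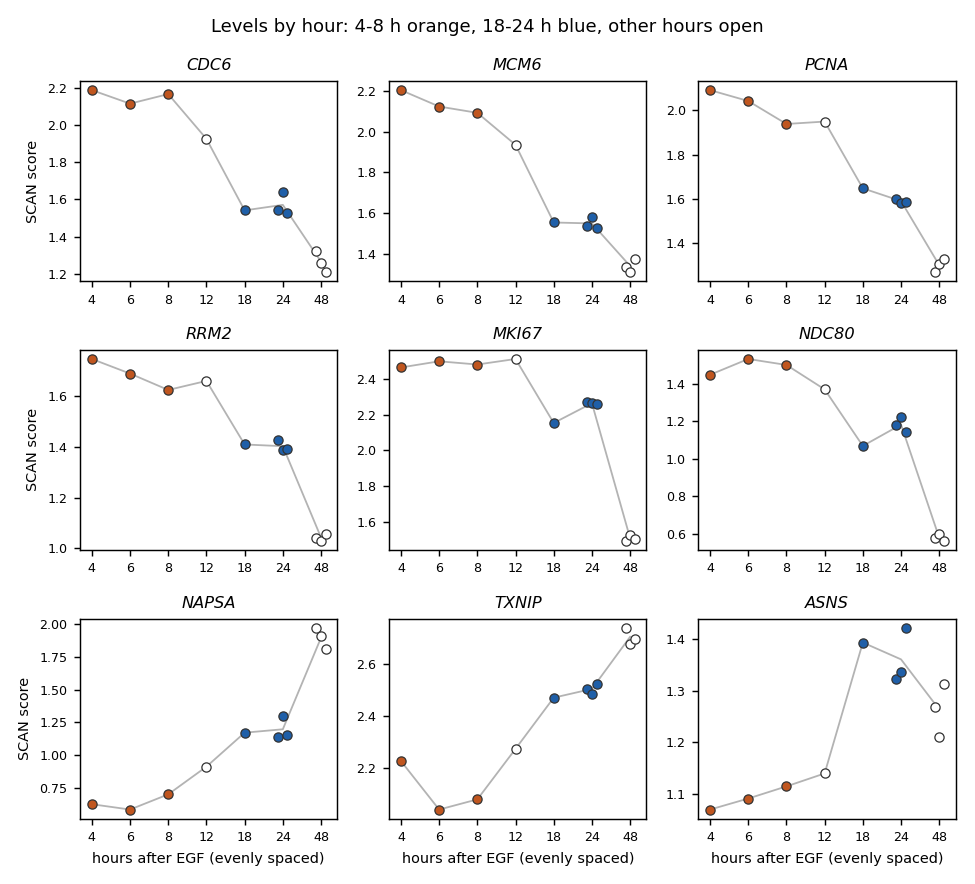
SCAN score (y axis, a separate range for each gene) of 9 genes on each array from 4 to 48 h after EGF (x axis, evenly spaced hours); each point is 1 array, and the line joins the means of the hours. The replication and mitosis genes CDC6, MCM6, PCNA, RRM2, MKI67 and NDC80 were lower on all 4 arrays of 18 to 24 h, and NAPSA, TXNIP and ASNS were higher on them.

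Enzymes of the fork and of precursor supply moved the same way. Of 7 fork genes 7 were called higher (median 0.33). PCNA, the sliding clamp of the DNA polymerases, scored 2.09, 2.04 and 1.94 and then 1.65 at 18 h and 1.60, 1.58 and 1.59 at 24 h (0.42 ± 0.034, adjusted p = 5.1e-07). The nuclease DNA2 (0.34 ± 0.027), the scaffold WDHD1 (0.34 ± 0.030) and TIMELESS, a protector of stalled forks (0.33 ± 0.027), were also higher. Of 12 genes of nucleotide supply 11 were called higher (median 0.14), with SHMT2 the exception. TYMS, which makes thymidylate, scored 1.87, 1.81 and 1.80 and then 1.37 at 18 h and 1.45, 1.45 and 1.42 at 24 h (0.40 ± 0.029, adjusted p = 2.6e-07). The ribonucleotide reductase subunits RRM1 (0.28 ± 0.029) and RRM2 (0.28 ± 0.030) differed by closely similar amounts. CTPS1, which makes CTP, differed by 0.16 ± 0.029.

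Of 20 measured regulators of entry into S phase 17 were called higher (median 0.20), and the 3 that were not were CCND1, CCND2 and CCND3. DTL, the adaptor by which a ubiquitin ligase removes CDT1 on PCNA, scored 2.44, 2.41 and 2.33 in the first window and 1.80 at 18 h and 1.80, 1.79 and 1.80 at 24 h in the second. The 4 late arrays lay within 0.02 of each other, and the difference was 0.59 ± 0.029 (SE; adjusted p = 3.4e-09). CCNE2 (cyclin E2), the partner of CDK2, scored 1.50, 1.47 and 1.43 against 0.87 at 18 h and 0.89, 0.94 and 0.89 at 24 h (0.57 ± 0.028, adjusted p = 3.4e-09), while CCNE1 (cyclin E1) differed by 0.19. Both the activator E2F1 (0.31) and the repressors E2F7 (0.23) and E2F8 (0.37 ± 0.031) were higher at 4 to 8 h. CDC25A, the phosphatase that activates CDK2, differed by 0.35 ± 0.030.

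Chromatin and repair genes that work at the fork were higher as well, 7 of 8 (median 0.20) and 13 of 13 (median 0.31). UHRF1, which brings DNA methyltransferase to new DNA, scored 1.71, 1.63 and 1.62 and then 1.23 at 18 h and 1.22, 1.28 and 1.19 at 24 h (0.42 ± 0.030, adjusted p = 2.0e-07), and DNMT1, that methyltransferase, differed by 0.20 ± 0.026. HAT1 (0.26 ± 0.027), which acetylates new histone H4, and the histone chaperone ASF1B (0.22 ± 0.028) were higher too. EXO1, an exonuclease of mismatch repair and resection, had the largest difference of the repair genes. It scored 1.52, 1.56 and 1.48 in the first window and 0.99 at 18 h and 0.98, 1.00 and 0.95 at 24 h in the second (0.54 ± 0.027, adjusted p = 3.4e-09). RAD54L, a motor protein of homologous recombination (0.36 ± 0.028), DSCC1, part of a clamp loader (0.36 ± 0.029), and UNG, which removes uracil from DNA (0.36 ± 0.044), were also called. RIBC2, a ciliary microtubule protein that was on no list, was among the 12 largest differences (0.46 ± 0.035, adjusted p = 3.4e-07).

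The 12 h array, which did not enter the comparison, lay between the means of the 2 windows for 47 of the 57 genes of DNA replication, which are the lists above without the regulators of S phase entry. It did so for 4613 of all 14675 genes and for 999 of the 1394 genes called higher. MCM6 scored 1.93 at 12 h and 1.31 to 1.37 at 48 h, and CDC6 1.93 and 1.21 to 1.32. Within the first window 10 of the 57 were higher at 8 h than at 4 h (7199 of all genes, and 456 of the 1394 called higher).

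Genes of mitosis were also higher at 4 to 8 h, by less. Of 79 genes on 4 lists 69 were called higher and 1 lower, with a median of 0.19. Of 25 mitotic kinases and regulators 21 were higher, and the 1 that was lower was CDC25B, a phosphatase of CDK1 (-0.11). PBK, a kinase of mitotic cells, scored 1.71, 1.67 and 1.61 and then 1.25 at 18 h and 1.30, 1.36 and 1.26 at 24 h (0.37 ± 0.032, adjusted p = 1.2e-06). MYBL2, which with MuvB switches on this programme, scored 2.36, 2.37 and 2.39 and then 2.00 at 18 h and 1.98, 2.07 and 2.03 at 24 h (0.35 ± 0.028, adjusted p = 3.9e-07). CDK1, the main mitotic kinase, differed by 0.30 ± 0.042 and its cyclin CCNB1 by 0.26 ± 0.030, while the differences of PLK1 (0.13), CDC20 (0.13) and FOXM1 (0.094) were smaller. MASTL, which shields CDK1 substrates from phosphatase (0.32 ± 0.028), and the kinase MELK (0.33 ± 0.036) were among the larger ones.

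Of 23 kinetochore and centromere genes 21 were called higher (median 0.22). NDC80, which holds microtubules at the kinetochore, scored 1.45, 1.53 and 1.50 and then 1.07 at 18 h and 1.18, 1.22 and 1.14 at 24 h (0.34 ± 0.035, adjusted p = 5.4e-06). The checkpoint protein MAD2L1 (0.36 ± 0.029) and the centromere proteins CENPI (0.34 ± 0.031) and CENPM (0.32 ± 0.030) were close to it. Of 19 kinesins, spindle and cytokinesis genes 18 were higher (median 0.17), among them the motors KIF11 (0.26 ± 0.030), KIF20B (0.25 ± 0.034), KIF15 (0.25 ± 0.028) and KIF4A (0.24 ± 0.029). Of 12 condensin, topoisomerase and lamina genes 9 were higher (median 0.16). MKI67, the proliferation antigen Ki-67 that coats mitotic chromosomes, scored 2.46, 2.50 and 2.48 and then 2.15 at 18 h and 2.27, 2.26 and 2.26 at 24 h (0.24 ± 0.031, adjusted p = 4.1e-05). The lamina genes LMNB1 (0.29 ± 0.035) and TMPO (0.28 ± 0.032) and the condensin subunit SMC2 (0.26 ± 0.029) were called as well.

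**Figure D2:**
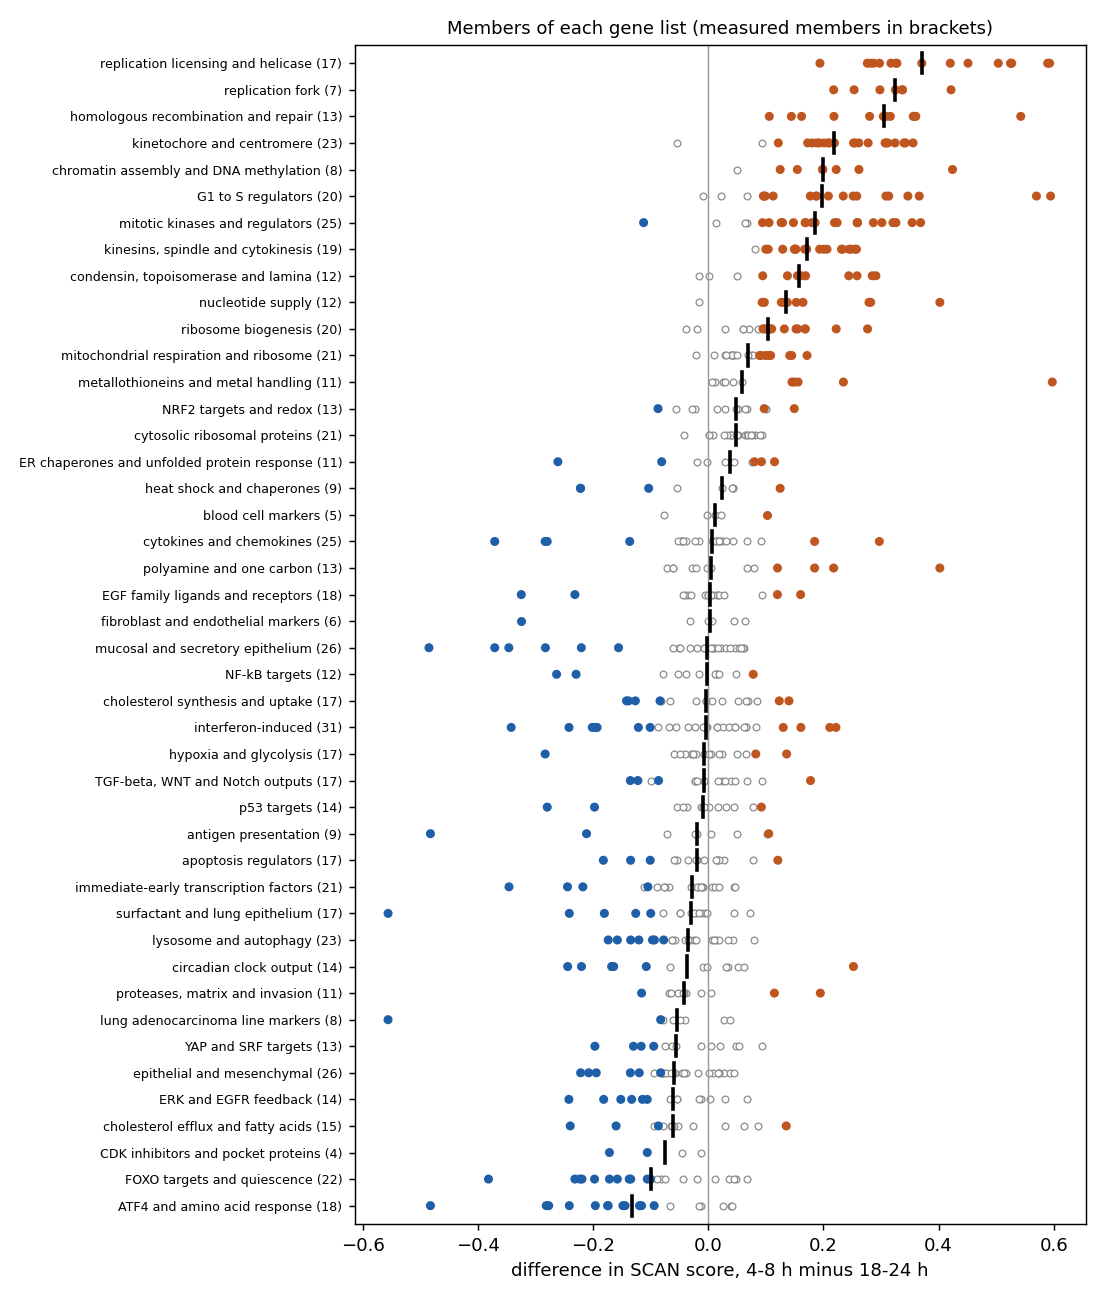
Difference in SCAN score between the windows (x axis) for every measured member of 44 gene lists (y axis, ordered by median); filled points passed the test (orange higher and blue lower at 4 to 8 h), open points did not, and the black bar is the median. The lists of DNA replication and mitosis lie to the right, with medians from 0.14 to 0.37, and the ATF4 and FOXO lists to the left, with medians of -0.13 and -0.099.

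The 18 h array was compared with the 3 arrays of 24 h in a fit of all 15 arrays with each hour as a level, in which a lone array is taken to vary like the replicated hours. limma called 0 of 14675 genes (0%), and 911 had an unadjusted p under 0.05. The mitosis genes were nevertheless mostly on one side, as a description. For 60 of the 79 the 18 h array lay below all 3 of 24 h, which was so for 30.8% of all genes and for 19 of the 57 genes of replication. The median of 18 h minus 24 h over the mitosis genes was -0.067, against -0.014 for the replication genes and -0.0073 for all genes. PLK4, which starts centriole duplication, scored 0.94 at 18 h and 1.09, 1.16 and 1.11 at 24 h, a difference of -0.18 (adjusted p = 0.52), while the 3 earlier arrays stood at 1.36, 1.36 and 1.36. SGO1, which guards centromeric cohesion, scored 1.37 at 18 h and 1.56, 1.56 and 1.51 at 24 h (1.66, 1.73 and 1.76 at 4, 6 and 8 h), and KIF18B, a kinesin of the spindle, 1.19 at 18 h and 1.37, 1.38 and 1.37 at 24 h (1.47, 1.49 and 1.58 earlier). These 3 genes, CDK1 and CCNB1 were picked after their values were seen. CDK1 had -0.16 (adjusted p = 0.53), and CCNB1 lay on the other side at 0.017 (adjusted p = 0.98). The 18 h array is single and the only one of the second window with its hour, so array and hour cannot be told apart.

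**Figure D3:**
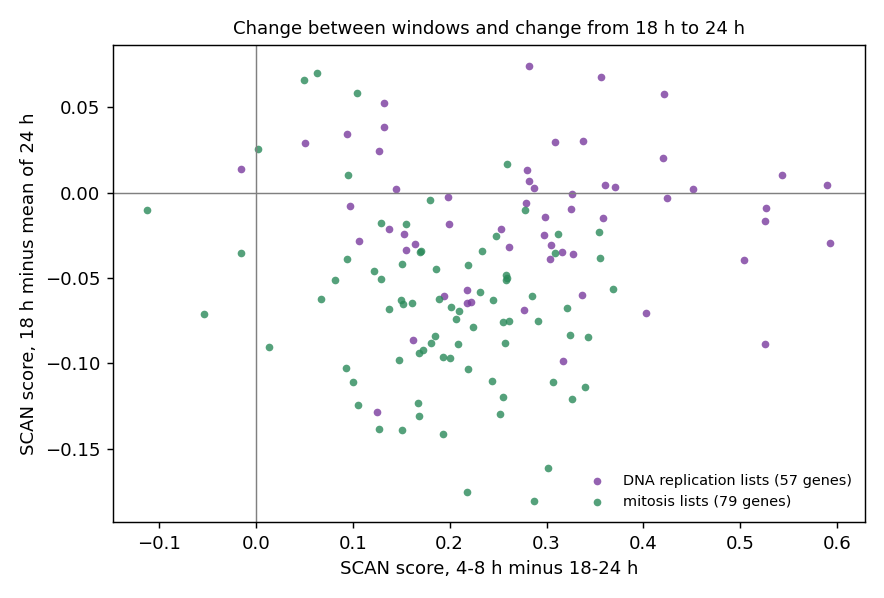
Difference between the windows (x axis) and difference of the 18 h array from the mean of the 24 h arrays (y axis), both in SCAN scores, for 57 genes of DNA replication (purple) and 79 of mitosis (green); the 18 and 24 h arrays enter both axes. Mitosis genes lie mostly below 0 on the y axis (median -0.067), and replication genes lie nearer to it (median -0.014).

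Genes of growth arrest and starvation ran the other way. Of 22 FOXO targets and quiescence genes 11 were called lower at 4 to 8 h and 0 higher (6.83% and 9.5% of all genes), with a median of -0.099. TXNIP, which blocks thioredoxin and glucose uptake, scored 2.23, 2.04 and 2.08 and then 2.47 at 18 h and 2.50, 2.49 and 2.52 at 24 h. Of these 7 arrays those of 6 and 8 h were lowest, and the difference was -0.38 ± 0.037 (SE; adjusted p = 3.3e-06). ERBB3, a receptor that partners EGFR, scored 1.34, 1.36 and 1.39 and then 1.56 at 18 h and 1.60, 1.63 and 1.59 at 24 h (-0.23 ± 0.027, adjusted p = 2.0e-05). YPEL3 (-0.22 ± 0.034), linked to growth arrest, the transcription factor SOX4 (-0.22 ± 0.040) and TP53INP1, a stress and autophagy protein (-0.20 ± 0.029), were also lower. RBL2, the pocket protein p130 of resting cells, scored 1.60, 1.61 and 1.64 and then 1.73 at 18 h and 1.84, 1.80 and 1.78 at 24 h (-0.17 ± 0.029, adjusted p = 6.6e-04). FOXO1 and FOXO3 themselves, with differences of 0.012 and 0.068, were not called.

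Of 18 genes of the ATF4 and amino acid response 12 were called lower and 0 higher (median -0.13). ATF4 is the factor that cells make when amino acids run short or the endoplasmic reticulum is stressed. ASNS, asparagine synthetase, scored 1.07, 1.09 and 1.12 and then 1.39 at 18 h and 1.32, 1.34 and 1.42 at 24 h (-0.28 ± 0.029, adjusted p = 7.9e-06), and DDIT4, an inhibitor of mTORC1, 0.83, 0.84 and 0.89 and then 1.15 at 18 h and 1.13, 1.15 and 1.10 at 24 h (-0.28 ± 0.027, adjusted p = 3.3e-06). For both genes the windows were far apart beside the spread within them. ULBP1, a stress ligand of the NK cell receptor NKG2D, was low at 4 h and had the largest difference of the group. It scored 0.58, 0.79 and 0.81 and then 1.25 at 18 h and 1.23, 1.17 and 1.19 at 24 h (-0.48 ± 0.043, adjusted p = 1.4e-06). STC2 (-0.24 ± 0.036), a secreted glycoprotein, and the serine synthesis enzymes PSAT1 (-0.20) and PSPH (-0.17) were lower, and PHGDH, the first enzyme of that pathway, and VLDLR were not called. Among 11 endoplasmic reticulum genes the calls were mixed, with ERN1, the stress sensor IRE1 (-0.26 ± 0.038, adjusted p = 1.5e-04), lower, as was SEL1L, and CRELD2, MANF and CALR higher. The calls of SEL1L, MANF and CALR ended without 1 or more single arrays (adjusted p of up to 0.14). Of 23 lysosome and autophagy genes 7 were called lower and 0 higher (6.83% and 9.5% of all genes), and 5 to 6 were lower without any 1 array. The 7 included the autophagy kinase ULK1 (-0.16 ± 0.026) and SESN2, which senses leucine (-0.17 ± 0.034).

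Epithelial and secretory genes were lower at 4 to 8 h where they differed. Of 17 surfactant and lung epithelium genes 5 were called lower and 0 higher, and of 26 mucosal and secretory genes 6 and 0, with medians near 0 (-0.030 and -0.0013). Among all genes the shares were 6.83% lower and 9.5% higher. Without any 1 array 3 to 6 of the surfactant genes were called lower. SFTPA1 was among the 5 (-0.13 ± 0.037, adjusted p = 0.026), its windows overlapped, and it lost its call without any 1 of 4 arrays (adjusted p of up to 0.11). NAPSA, the aspartic protease that matures surfactant protein B, had the largest difference in this direction. It scored 0.62, 0.58 and 0.70 and then 1.17 at 18 h and 1.14, 1.30 and 1.15 at 24 h (-0.56 ± 0.038, adjusted p = 1.3e-07), and went on to 1.81 to 1.97 at 48 h. HOPX, a homeodomain protein of alveolar cells, scored 0.21, 0.27 and 0.24 and then 0.55 at 18 h and 0.46, 0.39 and 0.53 at 24 h (-0.24 ± 0.035, adjusted p = 1.6e-04), while NKX2-1, the lineage factor of lung, and SFTPB, SFTPC and SFTPD were not called. PAEP, the secreted lipocalin glycodelin, scored 1.70, 1.72 and 1.86 and then 2.24 at 18 h and 2.21, 2.27 and 2.26 at 24 h (-0.48 ± 0.035, adjusted p = 2.0e-07). CXCL17, a chemokine of mucosal surfaces, scored 0.90, 0.85 and 1.02 and then 1.35 at 18 h and 1.28, 1.28 and 1.27 at 24 h (-0.37 ± 0.036, adjusted p = 3.6e-06). CEACAM5 (-0.28 ± 0.037) and CEACAM6 (-0.22) are closely related adhesion proteins whose probes may share signal. TMEM45B, a membrane protein, differed by -0.35 ± 0.028 (SE; adjusted p = 6.0e-07). Of 26 epithelial and mesenchymal genes 6 were called lower, among them the tight junction genes CLDN3 (-0.22 ± 0.030) and CLDN4 (-0.19 ± 0.028) and the splicing factor ESRP2 (-0.21 ± 0.032), whereas VIM, SNAI2 and ZEB1 were not called. Also among the 12 lowest were SLC60A1 (-0.37 ± 0.033), a glucose transporter, RNF225 (-0.36 ± 0.041), a ring finger protein, and ZSCAN4 (-0.35 ± 0.042), a zinc finger protein known from early mouse embryos.

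In EGF signalling itself, immediate-early and feedback genes that differed were lower at 4 to 8 h than a day after EGF. Over all genes 6.83% were called lower and 9.5% higher. Of 21 immediate-early transcription factors 4 were called lower and 0 higher, and 3 to 5 were lower without any 1 array. JUNB was among the 4 (-0.10 ± 0.029, adjusted p = 0.019), and its call ended without any 1 of 3 arrays (adjusted p of up to 0.092). EGR1, a zinc finger factor, scored 1.43, 1.54 and 1.26 and then 1.74 at 18 h and 1.75, 1.79 and 1.74 at 24 h (-0.35 ± 0.046, adjusted p = 6.4e-05). JUN, a subunit of AP-1, scored 1.03, 1.12 and 1.31 and then 1.39 at 18 h and 1.39, 1.42 and 1.39 at 24 h (-0.24 ± 0.046, adjusted p = 0.0014), and SRF, the serum response factor, 1.31, 1.33 and 1.40 and then 1.58 at 18 h and 1.56, 1.56 and 1.55 at 24 h (-0.22 ± 0.028, adjusted p = 5.2e-05). FOS, FOSL1 and MYC were not called. Of 14 feedback genes 6 were lower and 0 higher, and 4 to 6 were lower without any 1 array. SPRY2 was among the 6 (-0.13 ± 0.034, adjusted p = 0.013). Its windows overlapped, and its call ended without the 4 h array (adjusted p = 0.078). ERRFI1, which binds and inhibits EGFR, scored 2.65, 2.80 and 2.80 and then 3.00 at 18 h and 2.99, 3.00 and 3.00 at 24 h (-0.24 ± 0.034, adjusted p = 1.0e-04). DUSP6, the phosphatase of ERK, scored 0.86, 1.08 and 1.13 and then 1.25 at 18 h and 1.16, 1.22 and 1.20 at 24 h (-0.18 ± 0.048, adjusted p = 0.015), and its call ended without the 4 h array (adjusted p = 0.056). LRIG1, a membrane inhibitor of EGFR, differed by -0.15 ± 0.026 (SE; adjusted p = 5.9e-04). Among 18 ligands and receptors 2 were lower, ERBB3 and KDR, and 2 higher, NRG1 (0.16 ± 0.028, adjusted p = 6.6e-04), which encodes the ligand of ERBB3, and MET (0.12 ± 0.027, adjusted p = 0.0052), the receptor of hepatocyte growth factor. With 18 genes, both counts lie near the shares of all genes. EGFR itself was not called (-0.041 ± 0.025, adjusted p = 0.34). KDR, the VEGF receptor of endothelium, scored 0.51, 0.45 and 0.54 and then 0.85 at 18 h and 0.81, 0.85 and 0.79 at 24 h (-0.32 ± 0.029, adjusted p = 1.6e-06), and VEGFA, its ligand, 1.35, 1.47 and 1.54 and then 1.74 at 18 h and 1.74, 1.76 and 1.72 at 24 h (-0.28 ± 0.036, adjusted p = 5.0e-05). Of 25 cytokines 4 were lower and 2 higher, the latter near the share of all genes. CCL2, a chemokine of monocytes, was among the higher ones, at 0.65, 0.43 and 0.45 and then 0.22 at 18 h and 0.21, 0.20 and 0.22 at 24 h (0.30 ± 0.041, adjusted p = 9.6e-05), and GDF15, a stress cytokine, among the lower ones (-0.28 ± 0.051, adjusted p = 0.0011).

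Within the first window 7 genes were called between the arrays of 8 and 4 h (0.0477%), 6 higher and 1 lower at 8 h, and 1403 had an unadjusted p under 0.05. The 6 were ZNG1A, STH, MT4, AVIL, JUN and DUSP6, with differences from 0.36 (adjusted p = 0.0081) to 0.27 (adjusted p = 0.042), and 2 genes in all passed after quantile normalisation. ZNG1A, a zinc chaperone, has near-identical copies, so its signal is uncertain. The gene that was lower was MT1X, with -0.45 (adjusted p = 0.021). Both hours rest on 1 array, and their spread is borrowed from the hours with replicates.

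**Figure D4:**
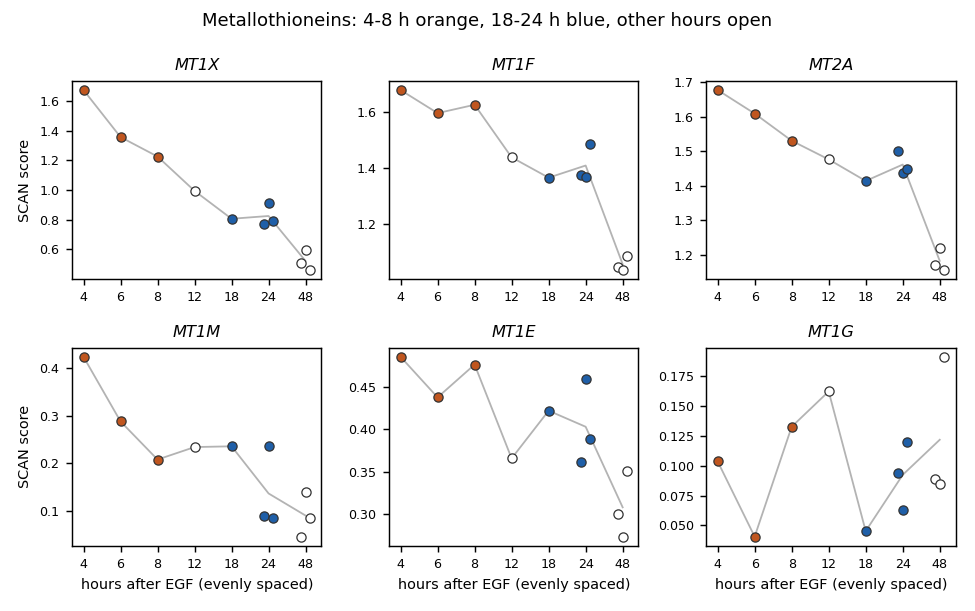
SCAN score (y axis, a separate range for each gene) of 6 metallothionein genes on each array (points) from 4 to 48 h (x axis, evenly spaced hours), with a line through the means of the hours. MT1X fell from 1.67 at 4 h to 0.77 to 0.91 at 18 to 24 h, MT1F and MT2A show smaller steps, and MT1E and MT1G overlap between the windows.

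Metallothioneins are small cysteine-rich proteins that hold zinc and copper, switched on by the zinc sensor MTF1. MT1X had the largest difference of all genes. It scored 1.67, 1.36 and 1.22 at 4, 6 and 8 h, 0.99 at 12 h and 0.81 at 18 h and 0.77, 0.91 and 0.79 at 24 h (0.60 ± 0.070, adjusted p = 2.0e-05). Of 9 measured metallothioneins on the list 4 were called higher, MT1X, MT1F (0.23 ± 0.033, adjusted p = 1.1e-04), MT2A (0.16 ± 0.034, adjusted p = 0.0039) and MT1M (0.15 ± 0.048, adjusted p = 0.047). The MT1M windows overlapped, and its call ended without any 1 of 4 arrays (4 h, 6 h, replicate 1 or 3 of 24 h), with an adjusted p of up to 0.26. MT1E scored 0.49, 0.44 and 0.48 and then 0.42 at 18 h and 0.36, 0.46 and 0.39 at 24 h, and MT1B, MT1G, MT1H and MT3 lay between -0.20 and 0.13 on the 7 arrays, with no call. MTF1 was not called either, and 9.5% of all genes were called higher. MT4, a metallothionein of stratified epithelium that was not on the list, scored 0.31, 0.49 and 0.61 and then 0.48 at 18 h and 0.48, 0.54 and 0.49 at 24 h. It was higher at 8 h than at 4 h by 0.30 (adjusted p = 0.042), the opposite of MT1X, and the windows overlapped (-0.025 ± 0.048, adjusted p = 0.81). The genes are near-identical in sequence, so part of one signal may come from another. HMOX1, heme oxygenase 1, was higher by 0.15 ± 0.037 (SE; adjusted p = 0.011), a call that ended without the 4 h array (adjusted p = 0.058).

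In the circadian clock, BMAL1 and CLOCK drive PER, CRY and the PAR bZIP factors DBP and TEF through E-boxes, and PER and CRY proteins hold BMAL1 and CLOCK back. Of 14 measured genes, named after their values were seen, 6 were called lower at 4 to 8 h and 1 higher (6.83% and 9.5% of all genes). BMAL1, the higher one, scored 1.11, 1.11 and 1.13 and then 0.85 at 18 h and 0.83, 0.95 and 0.83 at 24 h (0.25 ± 0.031, adjusted p = 3.4e-05), with no overlap. PER1 scored 0.54, 0.59 and 0.56 and then 0.78 at 18 h and 0.82, 0.81 and 0.83 at 24 h (-0.24 ± 0.026, adjusted p = 8.9e-06). PER2 lay within 0.02 of itself in the second window, at 0.74 at 18 h and 0.74, 0.74 and 0.73 at 24 h, after 0.48, 0.56 and 0.51 (-0.22 ± 0.027, adjusted p = 2.7e-05). PER3 (-0.17 ± 0.027), TEF (-0.17 ± 0.026), DBP (-0.16 ± 0.026) and CRY2 (-0.11 ± 0.027) went the same way as PER1. TEF scored lowest of these, at 0.013, -0.010 and 0.042 and then 0.16 at 18 h and 0.19, 0.17 and 0.21 at 24 h. These scores lay close to the range of the blood marker CD14. CLOCK (0.052 ± 0.030, adjusted p = 0.29), NPAS2 (-0.066 ± 0.027, adjusted p = 0.11), CRY1 (0.030 ± 0.028, adjusted p = 0.55) and RORA (0.062 ± 0.026, adjusted p = 0.14) did not pass. RORA was lower still than TEF, at 0.0025, -0.0025 and 0.0076 and then -0.036 at 18 h and -0.070, -0.098 and -0.031 at 24 h. At 48 h PER2 scored 0.71 to 0.76, a range that holds all 4 arrays of the second window. With hours of 4 to 8, 18 to 24 and 48, no period can be read.

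**Figure D5:**
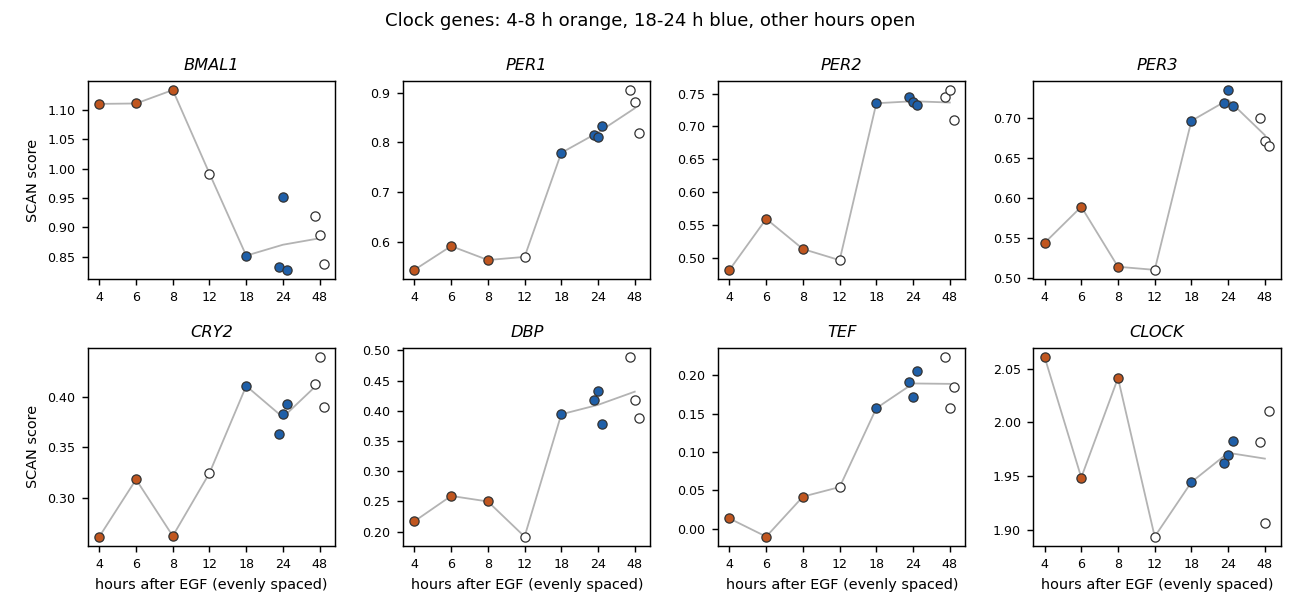
SCAN score (y axis, a separate range for each gene) of 8 clock genes on each array (points) from 4 to 48 h (x axis, evenly spaced hours), with a line through the means of the hours. BMAL1 was higher on all 3 arrays of 4 to 8 h than on the 4 arrays of 18 to 24 h, PER1, PER2, PER3, CRY2, DBP and TEF were lower, and CLOCK overlapped.

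Growth genes were higher at 4 to 8 h in part. Among all genes 9.5% were called higher and 6.83% lower. Of 20 ribosome biogenesis genes 13 were called higher and 0 lower (median 0.10), and 9 to 12 without any 1 array. NOLC1, a nucleolar chaperone, scored 2.20, 2.14 and 2.12 and then 1.86 at 18 h and 1.88, 1.89 and 1.88 at 24 h (0.28 ± 0.027, adjusted p = 3.6e-06), and LYAR, a nucleolar growth regulator, 1.27, 1.15 and 1.24 and then 0.99 at 18 h and 0.99, 1.03 and 0.99 at 24 h (0.22 ± 0.030, adjusted p = 8.4e-05). With the 12 h array added to the first window, or with the 24 h arrays averaged to 1 point, 6 of the 20 were called. The difference lay above 0 for 7822 of all 14675 genes. Of 21 ribosomal protein genes 0 were called, although 20 lay above 0 (median 0.048). RPL19 and RPL36, at 0.068 ± 0.039, adjusted p = 0.30 and 0.069 ± 0.036, adjusted p = 0.23, are among them. Of 21 mitochondrial genes 8 were higher (4 to 8 without any 1 array), for example TOMM40, the import pore (0.17 ± 0.033, adjusted p = 0.0016). Its other probe set differed by 0.056, which did not pass. SRM, spermidine synthase (0.22 ± 0.031, adjusted p = 1.2e-04), and MTR, methionine synthase (0.18 ± 0.026, adjusted p = 1.2e-04), were higher among 4 of 13 polyamine and one-carbon genes.

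Calls among lipid, interferon and stress genes lay in both directions, against 9.5% higher and 6.83% lower over all genes. Of 17 cholesterol genes 4 were lower, such as MSMO1, a sterol oxidase (-0.14 ± 0.030, adjusted p = 0.0037), and the master regulator SREBF2 (-0.14 ± 0.025, adjusted p = 0.0011), and 2 were higher, such as ACAT2 (0.14 ± 0.028, adjusted p = 0.0023). ACSL1, which activates fatty acids, scored 1.97, 1.97 and 1.99 and then 2.22 at 18 h and 2.20, 2.21 and 2.23 at 24 h (-0.24 ± 0.025, adjusted p = 6.1e-06). Of 31 interferon-induced genes 7 were lower and 4 higher. BST2, which tethers virions, scored 0.96, 0.90 and 1.16 and then 1.40 at 18 h and 1.31, 1.35 and 1.33 at 24 h (-0.34 ± 0.046, adjusted p = 7.2e-05), and IFITM1, a barrier to virus entry, differed by -0.24 ± 0.032 (SE; adjusted p = 6.6e-05). OASL (0.22 ± 0.033, adjusted p = 1.8e-04) and IFIT3 (0.21 ± 0.035, adjusted p = 4.9e-04), sensors and effectors of viral RNA defence, were higher. The number of lower interferon genes ranged from 3 to 8 without any 1 array. TAPBP, which loads peptides onto MHC class I, was lower (-0.21 ± 0.027, adjusted p = 4.4e-05). HSPA1A (-0.22 ± 0.028, adjusted p = 4.5e-05) and HSPA1B (-0.22 ± 0.031, adjusted p = 9.9e-05) encode the same inducible HSP70 chaperone from near-identical transcripts that these probes may not separate, and both were lower, while HSPA4 was higher (0.12 ± 0.027, adjusted p = 0.0041). In the lists of p53, hypoxia, NRF2, NF-kB and apoptosis genes at most 3 members were called in either direction, and the counts of higher members fell to 0 or 1 in each when some 1 array was left out.

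Of the microRNA genes, MIR21, MIR3122 and MIR3143 were picked after their values were seen. The array reads the region of the gene, not the mature microRNA. MIR3122 lies within DTL and MIR21 overlaps VMP1, so RNA of the host gene could enter either signal, which was not tested. MIR3122 scored 0.55, 0.46 and 0.45 and then 0.11 at 18 h and -0.00021, 0.10 and 0.19 at 24 h (0.39 ± 0.038, adjusted p = 4.0e-06), the order of DTL. MIR21 scored 2.15, 2.18 and 2.16 and then 2.50 at 18 h and 2.44, 2.31 and 2.48 at 24 h (-0.27 ± 0.038, adjusted p = 1.1e-04), while VMP1 differed by -0.013 (adjusted p = 0.83). MIR3143 scored 0.68, 0.70 and 0.71, then 1.16 at 12 h, then 1.00 at 18 h and 1.01, 1.04 and 1.01 at 24 h (-0.32 ± 0.025, adjusted p = 4.6e-07), and its 12 h value was the highest from 4 to 48 h. The mature sequences of the first pair, with the seed (bases 2 to 8) in capitals, are shown to identify them, and they share no seed:
hsa-miR-21-5p, chr17:59841273-59841294, plus strand: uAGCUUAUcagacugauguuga
hsa-miR-3122, chr1:212077622-212077643, plus strand: gUUGGGACaagaggacggucuu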

How the data were processed

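RNA of H1975 cells was hybridised to Affymetrix GeneChip Human Gene 2.0 ST arrays. The authors deposited 1 SCAN score per probe set, computed by Single Channel Array Normalisation on each array alone (correction for probe GC content, log scale, standardisation within the array, no step between arrays). No array was identical to another and no value was missing. Arrays give no count, so their number limits the precision.

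The platform annotation paired 15426 probe sets with 1 symbol and left 24511 unnamed, and symbols were updated through gene identifiers (GRCh38.p14). For 534 genes with several probe sets the brightest was kept, which left 14675 genes. Windows were compared by limma (version 3.58.1, R 4.3.3, two-sided moderated tests), with window as the factor over 7 arrays (5 residual degrees of freedom), and with 10 hours as levels over all 15 arrays for 18 h against 24 h and 8 h against 4 h. Benjamini-Hochberg adjustment ran over all genes. The fits were tested on simulated data.

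The windows, the 45 gene lists (695 entries measured) and the tests were chosen with earlier results of these data known. Named genes are the 12 highest and 12 lowest called (without small RNA, uncharacterised and olfactory receptor symbols), up to 4 called members of each list with the largest differences (or the 2 brightest where none was called), all metallothioneins and the 5 largest calls of the comparisons between hours. One of the 12 lowest is not reported here. Other members are given by their difference only, and genes picked after their values were seen are named as such. Alternatives were quantile normalisation, median centring, a filter on dim genes, all probe sets, trend and robust moderation, other treatments of 12 and 24 h, a replicate block and leaving out each array.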

Additional observations from a re-analysis of the deposited data

Results flagged for a closer look

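Among the 4 arrays of 18 to 24 h, 15 of 182 named genes had 1 array that stood apart from the other three by more than the 95% limit of Dixon's test. Chance flags about 1 in 20 such groups, and the 18 h array is also of another hour than the other three. The array at 18 h was the low one for GINS2 (1.79, others 1.87 to 1.88), CENPI (1.54, others 1.62 to 1.63), MKI67 (2.15, others 2.26 to 2.27), KIF18B (1.19, others 1.37 to 1.38) and ACAT2 (1.42, others at 1.50). It was the high one for HSPA1B (2.56, others 2.46 to 2.47), ERN1 (1.03, others 0.985 to 0.987) and CXCL17 (1.35, others 1.27 to 1.28). Replicate 2 of 24 h stood above the rest for CDC6 (1.64, others 1.53 to 1.54), LYAR (1.03, others 0.988 to 0.991) and JUN (1.42, others at 1.39), and below it for WDHD1 (1.36, others at 1.45). Replicate 3 of 24 h was high for MT1F (1.49, others 1.37 to 1.38) and CLDN4 (1.52, others at 1.48), and replicate 1 of 24 h was low for SPRY2 (1.35, others 1.45 to 1.46).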

How the results depend on the processing

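The count of 2396 called among 14675 genes stayed within 1.5 times under quantile normalisation (2403, of which 1187 were higher at 4 to 8 h) and median centring (2419, 1466 higher). It also did so with trend and robust moderation (2453), hours as levels (2578) and the mean of the 24 h arrays as 1 point (1621). With the 12 h array placed in the first or second window it was 1887 or 1614. The filter on dim genes called 2506, but of only 7337 genes tested. The fit of all probe sets called 3420, but tested the unnamed probe sets too. These counts rest on other numbers of tests, so they do not show whether the count of 2396 is stable. The median difference of all genes was 0.0042, and it was -0.00081 after quantile normalisation and 0.0073 after median centring. After quantile normalisation more genes were called lower (1216) than higher (1187), against 1394 higher and 1002 lower before it. Without any 1 array 1843 to 2182 genes were called. With a replicate block 596 genes were called, and among the arrays of replicate number 1 alone 512. Deviations of same-numbered 24 and 48 h arrays correlated at 0.0103, 0.0281 and 0.0297, and those of unlike numbers at -0.024 to -0.0034. No array of 4 to 8 h entered that check, so it cannot say whether the numbers pair the windows. All arrays of 4 to 8 h carry number 1, so with the block only the replicate 1 array of 24 h sets the difference. With the block every licensing gene kept its call. Calls were lost in other lists, among them all lists of mitosis and those of nucleotide supply and ribosome biogenesis. The lists of FOXO targets, ATF4, EGFR feedback and lysosome genes also lost calls. The comparison of 8 h with 4 h gave 2 calls after quantile normalisation in place of 7, and that of 18 h with 24 h gave 0 under each alternative tried. Of the 168 called among the named genes, 28 lost the call when 1 array was left out, and none changed its sign in an alternative. With the 12 h array in the second window 26 lost it, and with the 24 h arrays as 1 point 23. More still lost it with the replicate block or the replicate 1 arrays alone, where 1 array of 24 h sets the difference. The cause of these changes was not tested. Differences below about 0.1 are near the limit of what 7 arrays can show.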
